A study of Mus musculus with 10 samples.

Results

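Differentiated oviduct organoids without the small GTPase CDC42 were compared, gene by gene, with differentiated control organoids. The comparison used the 4 libraries whose labels name the PgrKO_Diff and F/F_Diff groups, 2 in each, of 10 libraries in the series. The stress lies on the 15307 of 15817 genes kept that stand outside a list of 510 cilium genes. F/F_Diff organoids came from Cdc42 f/f mice, in which loxP sites flank exon 2 of both copies of Cdc42. PgrKO_Diff organoids came from PgrCre/+Cdc42 f/f mice, which carry the same floxed copies and also express the Cre recombinase from the progesterone receptor gene, so that cells of the reproductive tract that have switched on this gene delete the exon. The organoids were grown in Matrigel from dispersed epithelial cells of the oviduct, and both groups received estradiol (E2) at 10 nM and the Notch inhibitor DBZ at 1 μM for 6 days, the treatment that drives multiciliated cell differentiation. The study asked with this comparison what organoids lacking CDC42 fail to do when they are told to differentiate. The other 6 libraries were the undifferentiated organoids of both genotypes (F/F_Con and PgrKO_Con, 2 each), and organoids of Cdc42 f/f mice given a Cre adenovirus in culture (AdKO_Con and AdKO_Diff, 1 each). In the labels the genotype field of the F/F_Diff libraries reads Cdc44 and Cdc45 flox/flox, while their tissue field reads Cdc42 f/f, which was used.

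CDC42 is a small GTPase that switches between a GTP-bound and a GDP-bound state. In epithelia it is known for recruiting the PAR polarity complex to the apical membrane, for driving actin assembly through WASP, formin and BORG proteins and PAK kinases, and for signaling to PI3K and AKT. The oviduct epithelium consists of multiciliated cells that move gametes and embryos and of secretory cells that release glycoproteins, mucins and protease inhibitors, and blocking Notch pushes the secretory cells toward the multiciliated type.

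The gene targeted was checked first. Cdc42 (mm10 chromosome 4, 137319696 to 137357720) was at 125 and 126 FPKM (fragments scaled to exon length and to the depth of the library) in F/F_Diff and at 113 and 134 FPKM in PgrKO_Diff. The groups overlapped, with a log2 difference of -0.03 ± 0.15 (SE) and an adjusted p of 0.904 by limma. This value sums reads over all exons, so it does not check the loss of exon 2, and the genotypes rest on the labels. The epithelial surface protein gene Epcam was high in all 4 libraries, at 307 and 204 FPKM in F/F_Diff and 318 and 226 FPKM in PgrKO_Diff. Foxj1, the master transcription factor of motile cilia, was at 476 and 534 FPKM in F/F_Diff and at 30.5 and 40.1 FPKM in PgrKO_Diff. Pax8, a transcription factor of the secretory cells, was at 18.8 and 19.4 FPKM against 24.3 and 24.5 FPKM and did not pass the test (adjusted p = 0.169 by limma), nor did Ovgp1, which encodes the major oviduct glycoprotein (1340 and 3820 against 3400 and 1860 FPKM, overlapping, adjusted p = 0.891).

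The libraries held between 11770953 and 17331800 reads on genes. Replicates correlated across genes on the log2 scale with a Pearson r of 0.966 in F/F_Diff and 0.935 in PgrKO_Diff. Among the 4 libraries compared, PgrKO_Diff replicate 2 stood apart in transcripts of other cell types. Summed over 16 leukocyte and macrophage markers it had 1650 FPKM, against 375 FPKM in PgrKO_Diff replicate 1 and 187 and 72.2 FPKM in F/F_Diff. Summed over 16 fibroblast and mesenchyme markers it had 452 FPKM, against 132 FPKM in PgrKO_Diff replicate 1 and 25.3 and 17.6 FPKM in F/F_Diff. Of the fibroblast markers, Lum, Dpt and Twist2 were at 0 in F/F_Diff replicate 1, and Dcn, Lum, Postn, Thy1, Dpt and Twist2 were at 0 in F/F_Diff replicate 2, while only Dpt was at 0 in PgrKO_Diff replicate 1 and none in PgrKO_Diff replicate 2. Of the leukocyte markers only Cd3e was at 0 in F/F_Diff replicate 1, Adgre1, Tyrobp, C1qa, C1qb, Mrc1 and Cd3e were at 0 in F/F_Diff replicate 2, and none was at 0 in PgrKO_Diff. The undifferentiated libraries of the genotypes differed too. Their leukocyte sums were 345 and 1200 FPKM in PgrKO_Con, against 183 and 209 FPKM in F/F_Con. The fibroblast sums were 235 and 193 FPKM in PgrKO_Con, against 85.2 and 65.2 FPKM in F/F_Con. The 9 endothelial markers summed to 3.03 and 1.74 FPKM in F/F_Diff and to 11.2 and 29.2 FPKM in PgrKO_Diff, and the 8 smooth muscle markers to 1.63 and 1.30 against 7.61 and 15.7 FPKM. In PgrKO_Diff replicate 1 only 1 of the 9 endothelial markers reached 1 FPKM, Cdh5 at 9.08 FPKM. The 14 general epithelial markers, by contrast, summed to 3260 and 2450 FPKM in F/F_Diff and 2480 and 2150 FPKM in PgrKO_Diff. In these bulk libraries fewer cells of a type and less RNA per cell cannot be told apart.

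**Figure D1:**
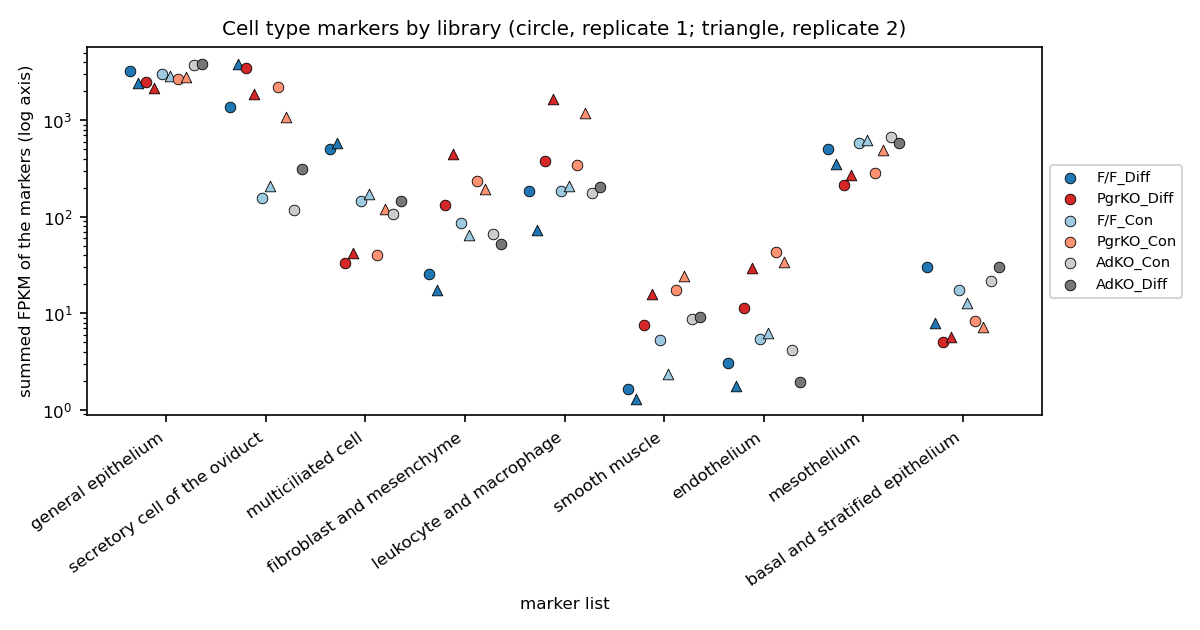
Summed FPKM (log axis) of 9 lists of cell type markers in each of the 10 libraries, with color for the group, circles for replicate 1 and triangles for replicate 2. The PgrKO_Diff libraries (red) lie above the F/F_Diff libraries (dark blue) for fibroblast, leukocyte, smooth muscle and endothelial markers, with PgrKO_Diff replicate 2 at 452 FPKM of fibroblast and 1650 FPKM of leukocyte markers. The endothelial sum of PgrKO_Diff replicate 1, 11.2 FPKM, is mostly Cdh5 at 9.08 FPKM.

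A gene passed the test where its adjusted p (Benjamini-Hochberg over all 15817 genes) was under 0.05 in a limma fit to log2(FPKM + 1), and each log2 difference below is PgrKO_Diff minus F/F_Diff on that scale, which understates the change of low genes. Over all genes 11.7% passed as higher and 15.4% as lower in PgrKO_Diff, and with a log2 difference past 1 as well the shares were 4.94% and 11.2%. Which direction held more of the passed genes depended on the scaling: 1856 were higher and 2433 lower as deposited, against 2446 (15.5%) and 2187 (13.8%) after the libraries were set to the same median log2 level and 2199 and 2284 after quantile normalization. With a log2 difference past 1, the lower genes were the more numerous under all 3. Outside the cilium list, 777 genes were higher and 1406 lower with a log2 difference past 1. The median log2 difference was 0.07 over all genes and 0.09 outside the cilium list. The labels do not say that replicates came from separate cultures or mice, so the error behind each p is the spread of these libraries and may be technical. With 2 libraries in a group the calls were sensitive to single libraries, so a gene is said to have held below where its adjusted p remained under 0.05 when each of the 8 F/F and PgrKO libraries was left out in turn. The 781 genes higher past a log2 difference of 1 over all genes numbered 456 without F/F_Diff replicate 1, 270 without replicate 2 and 1174 without PgrKO_Diff replicate 1, while the 1770 lower stayed within 1.5 times. Of the genes outside the cilium list, 211 of the 777 higher and 791 of the 1406 lower held in this sense.

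**Figure D2:**
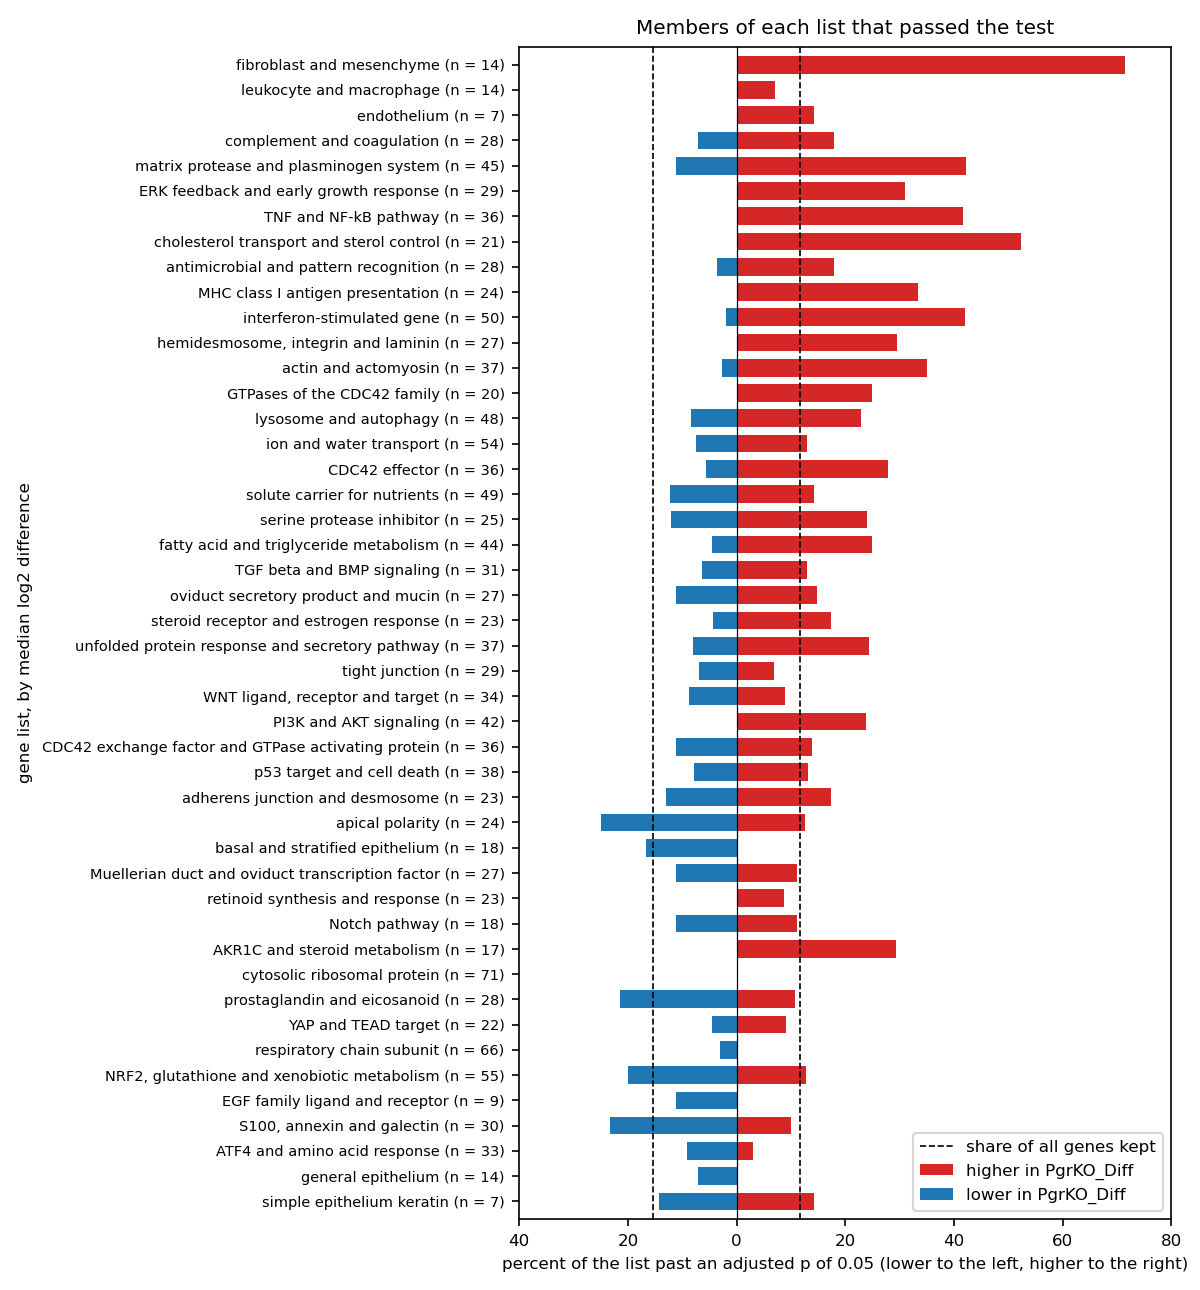
Percent of each gene list past an adjusted p of 0.05 by limma, lower in PgrKO_Diff to the left and higher to the right, with the number of genes tested in parentheses. Lists are ordered by median log2 difference, lists with fewer than 7 genes tested are left out, and dashed lines mark the shares of all genes kept (11.7% higher and 15.4% lower).

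The largest fall outside the cilium was that of Mmp13, which encodes the collagenase MMP13 (mm10 chromosome 9, 7272514 to 7283331). It was at 844 and 546 FPKM in F/F_Diff and at 3.71 and 19.3 FPKM in PgrKO_Diff, a mean 60.5-fold lower. The libraries of the groups lay far apart, and the log2 difference of -6.12 ± 0.92 (adjusted p = 0.0069 by limma) held, with a highest adjusted p of 0.0438. The gene was also low before differentiation, at 56.7 and 17.1 FPKM in F/F_Con and 5.7 and 19.3 FPKM in PgrKO_Con, where the genotypes overlapped. Its promoter is shown because the gene had the largest fall and because it holds the letters bound by AP-1, the dimers of JUN and FOS proteins whose genes are described below. Capitals mark letters of any of the 3 motifs searched on both strands in 10877 genes with a promoter in RefSeq (GRCm38.p6, 250 bases before to 50 after the start). These were TGANTCA, an AP-1 site found in 6.55% of genes, the core of the interferon-stimulated response element (GAAA, any 2 bases, then GAAA) found in 3.72%, and the core of an NF-kB site (GGGA, any base, then TTTCC) found in 0.524%. The Mmp13 promoter (chr9:7272264-7272563, plus strand) holds TGANTCA 35 bases before the start and the response element core 146 bases before it.
Mmp13: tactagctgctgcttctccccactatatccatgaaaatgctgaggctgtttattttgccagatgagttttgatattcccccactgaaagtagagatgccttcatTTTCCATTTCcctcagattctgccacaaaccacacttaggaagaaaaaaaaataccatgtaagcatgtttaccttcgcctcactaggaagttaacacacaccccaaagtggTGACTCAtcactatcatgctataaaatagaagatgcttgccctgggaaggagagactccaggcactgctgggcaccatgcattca

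The serpin gene Serpina9, whose product is a secreted protease inhibitor, fell 28.1-fold, from 64.1 and 133 FPKM to 3.32 and 3.72 FPKM (log2 difference -4.37 ± 0.62, adjusted p = 0.00604). Dmkn, which encodes the epithelial secreted protein dermokine, fell 28.7-fold, from 65.8 and 64.3 FPKM to 2.35 and 2.18 FPKM. Styxl1, a gene for a catalytically inactive phosphatase, fell from 33.8 and 32.8 FPKM to 0.745 and 0.627 FPKM, and Caly, which encodes a vesicle protein of neurons, from 27.6 and 38.3 FPKM to 0.392 and 1.85 FPKM. In each of these genes both F/F_Diff libraries were many times above both PgrKO_Diff libraries, and all 4 calls held. Rnf112, a RING finger gene, was at 12.6 and 17.7 FPKM in F/F_Diff and at 0 and 0.0218 FPKM in PgrKO_Diff, and Nhlrc4 was at 29.6 and 28.4 FPKM against 0.813 and 1.25 FPKM. These calls held too. The other 8 of the 15 largest falls were Mmp8, the neutrophil collagenase gene, Prss22, a tryptase gene, Kcnrg, Stmnd1, Anxa8, Ldlrad1, Speer4c and Sftpc, the surfactant protein C gene. Their log2 differences ran from -4.93 for Mmp8 to -4.0 for Sftpc, and none of them held. Without F/F_Diff replicate 2 the adjusted p was 0.0677 for Mmp8, 0.0769 for Kcnrg, 0.0585 for Stmnd1, 0.0855 for Anxa8, 0.0768 for Ldlrad1, 0.0663 for Speer4c and 0.104 for Sftpc. Without PgrKO_Diff replicate 1 it was 0.0516 for Mmp8, 0.0553 for Anxa8, 0.0536 for Ldlrad1 and 0.0513 for Sftpc, without F/F_Diff replicate 1 it was 0.0617 for Ldlrad1 and 0.0572 for Sftpc, and without PgrKO_Diff replicate 2 it was 0.0774 for Sftpc. Prss22 was at 201 and 20.7 FPKM in F/F_Diff and lost its call in 7 of the 8 fits, with an adjusted p of 0.169 without F/F_Diff replicate 1. Speer4c belongs to a family of near-identical copies, so its reads may be split among them.

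The summed level of 3 multiciliated cell markers moved with these falls. It was 510 and 580 FPKM in F/F_Diff and 33.4 and 42.3 FPKM in PgrKO_Diff. Most of this sum was Foxj1, given above. None of the 3 was at 0, and 2 of them reached 1 FPKM in each PgrKO_Diff library. The part of multiciliated cells in the falls outside the cilium list was not tested.

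**Figure D3:**
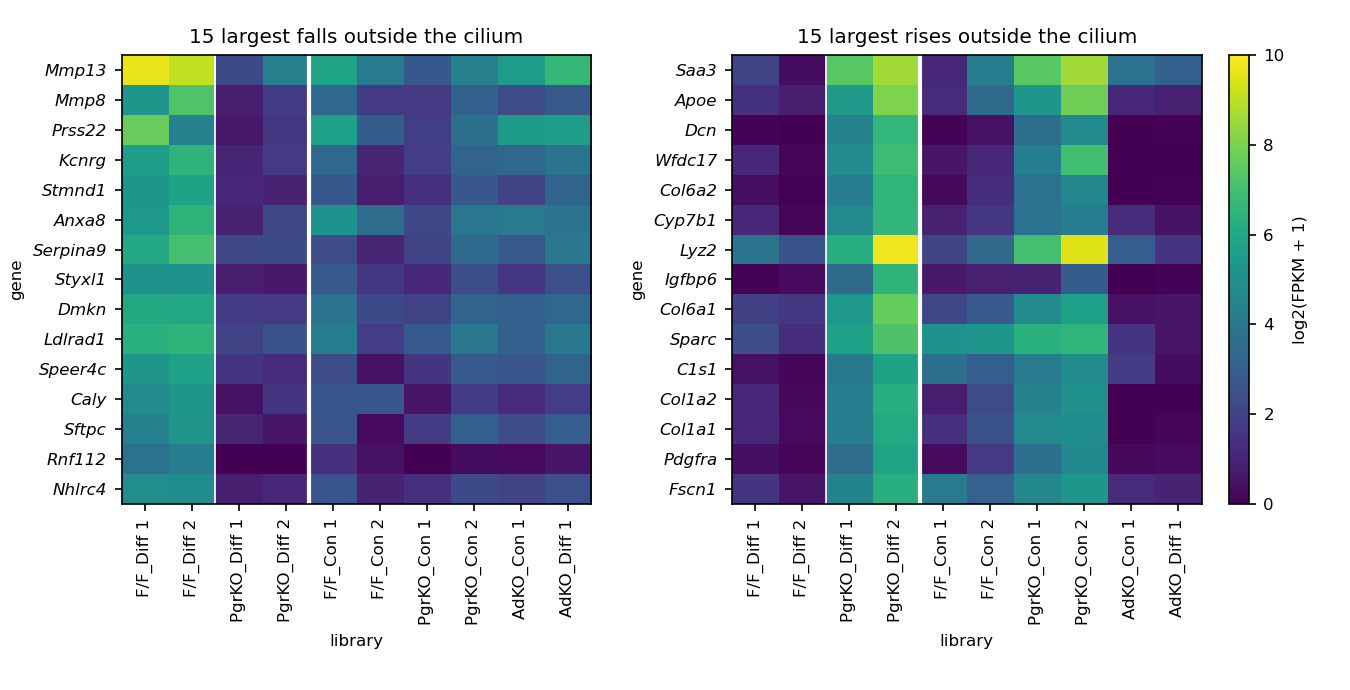
Level as log2(FPKM + 1), by color, of the 15 largest falls and 15 largest rises outside the cilium list in all 10 libraries. Most of the falls are highest in the F/F_Diff libraries, and most of the rises are highest in PgrKO_Diff replicate 2, raised in PgrKO_Con and near 0 in the AdKO libraries.

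Most of the 15 largest rises were genes of the stroma and of macrophages. Dcn, which encodes the matrix proteoglycan decorin, was at 0.082 and 0 FPKM in F/F_Diff and at 21.5 and 97.9 FPKM in PgrKO_Diff (log2 difference 5.50 ± 0.72, adjusted p = 0.0049, held). Sparc, the gene of a matrix glycoprotein, was at 4.17 and 1.5 FPKM against 51.9 and 145 FPKM (4.61 ± 0.53, adjusted p = 0.00376, held). C1s1, which encodes a serine protease of the complement system made by fibroblasts, was at 0.372 and 0.138 FPKM against 15.3 and 54.1 FPKM (4.58 ± 0.59, adjusted p = 0.00469, held), and Cyp7b1, an oxysterol hydroxylase gene, at 1.17 and 0.142 FPKM against 25.6 and 95.4 FPKM (5.01 ± 0.65, adjusted p = 0.00479, held). For all of these PgrKO_Diff replicate 2 was the highest of the 4 libraries. The collagen genes Col6a2, Col6a1, Col1a2 and Col1a1, the PDGF receptor gene Pdgfra, the actin bundler gene Fscn1 and the acute phase gene Saa3 rose by 4.34 to 6.82 and lost their calls without F/F_Diff replicate 2, where adjusted p ran from 0.0506 for Col1a1 to 0.0768 for Pdgfra. Pdgfra also lost its call without F/F_Diff replicate 1 (0.0583). Apoe, Wfdc17, Lyz2 and Igfbp6 also lost theirs without PgrKO_Diff replicate 2, with adjusted p of 0.094, 0.0664, 0.143 and 0.051, and without F/F_Diff replicate 1 and replicate 2 their adjusted p ran from 0.0535 for Wfdc17 to 0.192 for Lyz2. Lyz2 lost its call also without any one of the 4 undifferentiated libraries.

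The other cell type markers moved in the same libraries. Of 14 fibroblast and 14 leukocyte and macrophage markers kept, 3 of each list reached a mean of 1 FPKM in F/F_Diff and all 14 did in PgrKO_Diff, so most were kept through the group in which they were high, and their counts are given only as a description. Of the fibroblast markers 10 passed, all higher, and 4 without F/F_Diff replicate 2, and of the leukocyte markers 1 passed, Lyz2. When PgrKO_Diff replicate 1 was left out, 10 leukocyte markers passed, and without F/F_Diff replicate 2, PgrKO_Diff replicate 2 or any 1 of the undifferentiated libraries none did. Among 7 endothelial markers only Cdh5, the vascular cadherin gene, rose, from 0.407 and 0.0587 FPKM to 9.08 and 9.62 FPKM (3.08 ± 0.24, adjusted p = 0.00288, held). Leaving out PgrKO_Diff replicate 1 raised the endothelial count to 6. In the AdKO_Diff library, whose organoids lost Cdc42 in culture, Dcn was at 0.0434 FPKM and Col1a2 at 0.0272 FPKM. Sparc was at 0.423 FPKM and Lyz2 at 1.8 FPKM there. Against the same F/F_Diff controls, Dcn in this single library lay between the 2, and Col1a2, Sparc and Lyz2 lay below both. The marker sums went otherwise, at 52.4 FPKM for fibroblasts, 203 FPKM for leukocytes and 9.12 FPKM for smooth muscle. These sums were above both F/F_Diff libraries, and the endothelial sum of 1.95 FPKM lay between them. They rest on few members, as 4 of 16 fibroblast, 3 of 16 leukocyte and 1 of 8 smooth muscle markers reached 1 FPKM. Acta2 alone was at 8.42 FPKM. The median log2 difference of AdKO_Diff from F/F_Diff was 0 for the fibroblast and -0.04 for the leukocyte markers kept. The part of other cells in the largest rises was not tested.

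Of 45 genes of matrix proteases and the plasminogen system, 19 rose and 5 fell, or 42.2% and 11.1% against 11.7% and 15.4% of all genes. Beside Mmp13, Mmp23 fell from 48.3 and 40.7 FPKM to 4.83 and 8.46 FPKM (-2.61 ± 0.40, adjusted p = 0.00722, held). Mmp2, a gelatinase gene of fibroblasts, chosen after its values were seen, rose from 3.91 and 1.83 FPKM to 17.9 and 35.6 FPKM (2.82 ± 0.66, adjusted p = 0.0267), and its adjusted p was 0.0684 without F/F_Diff replicate 1, 0.139 without replicate 2 and 0.113 without PgrKO_Diff replicate 2. Adamts1, which encodes a protease that cleaves proteoglycans, was at 3.39 and 3.73 FPKM against 10.4 and 20.5 FPKM (1.78 ± 0.32, adjusted p = 0.0113) and lost its call without either F/F_Diff library (highest adjusted p 0.0615). The count of 19 fell to 3 without F/F_Diff replicate 1, to 0 without replicate 2 and to 8 without PgrKO_Diff replicate 2, while the falls of Mmp13 and Mmp23 held. The fibroblast marker sums given above moved with the rises, and the part of fibroblasts in them was not tested.

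Of 25 genes of serine protease inhibitors, 6 rose and 3 fell, or 24% and 12%. All 3 falls were of genes that were higher in F/F_Diff than in F/F_Con. Only 2 rises and 1 fall were left without F/F_Diff replicate 2, and the rises numbered 3 without F/F_Diff replicate 1 or PgrKO_Diff replicate 2. Serpinb11 fell from 92.9 and 242 FPKM to 23.7 and 21.9 FPKM (-2.67 ± 0.56, adjusted p = 0.0185) and Serpinb12 from 36.8 and 40.7 FPKM to 2.87 and 2.77 FPKM (-3.38 ± 0.89, adjusted p = 0.038), both beside Serpina9. Serpinb11 lost its call without F/F_Diff replicate 2 (adjusted p = 0.083) and without PgrKO_Diff replicate 1 (0.058) or replicate 2 (0.0749), and Serpinb12 lost its call in 6 of the 8 fits (up to 0.154). Serpina3g, an inhibitor gene of leukocytes and inflamed tissue with near-identical copies, rose from 0.552 and 0.0879 FPKM to 13 and 14.8 FPKM (3.52 ± 0.33, adjusted p = 0.00288, held). Serping1, which encodes the inhibitor of complement C1, rose from 7.21 and 5.41 FPKM to 56.3 and 160 FPKM (3.73 ± 0.61, adjusted p = 0.00872), with an adjusted p of 0.0609 without F/F_Diff replicate 2. The other clade B serpin genes tested, Serpinb1a, Serpinb2, Serpinb5, Serpinb6a, Serpinb6b, Serpinb8, Serpinb9 and Serpinb9b, had log2 differences from -0.86 to 1.83 and did not pass.

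Of 27 genes of oviduct secretory products and mucins, 4 rose and 3 fell, or 14.8% and 11.1%. Pigr, the receptor that carries immunoglobulin A across epithelia, was at 51.2 and 9.85 FPKM in F/F_Diff and at 365 and 211 FPKM in PgrKO_Diff (3.55 ± 0.73, adjusted p = 0.0182), and its adjusted p was 0.07 without PgrKO_Diff replicate 1 and 0.0501 without replicate 2. The gene of the membrane mucin MUC4 fell from 17.8 and 16.9 FPKM to 6.07 and 2.26 FPKM (-1.93 ± 0.42, adjusted p = 0.0205) and lost its call without F/F_Diff replicate 1, F/F_Diff replicate 2 or PgrKO_Diff replicate 2, with adjusted p up to 0.0949 for Muc4. Fxyd4, which encodes a small regulator of the sodium pump, fell from 7.86 and 5.61 FPKM to 0.16 and 0.174 FPKM (-2.71 ± 0.21, adjusted p = 0.00283, held). In each of these 3 genes the groups lay apart, but the F/F_Diff libraries differed from each other in Pigr by a larger factor than the PgrKO_Diff libraries did. The 4 rises of the list numbered 2 without F/F_Diff replicate 1, 1 without replicate 2, 0 without PgrKO_Diff replicate 1 and 2 without PgrKO_Diff replicate 2.

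Of 29 tight junction genes 2 rose and 2 fell, and of 23 genes of adherens junctions and desmosomes 4 rose and 3 fell, or 6.9% each way in the first list and 17.4% and 13% in the second, against 11.7% and 15.4% of all genes. No tight junction rise was left without either F/F_Diff library, and without PgrKO_Diff replicate 1 there were 5 rises and 5 falls. Of the adherens junction rises none was left without F/F_Diff replicate 2, while leaving out F/F_Diff replicate 1, PgrKO_Con replicate 2 or PgrKO_Diff replicate 2 left 1, and any other of the 8 libraries 2. Cldn2, a claudin that forms pores for cations and water (mm10 chromosome X, 139800828 to 139811386), fell 9.56-fold, from 117 and 99 FPKM to 13.5 and 9.16 FPKM (-3.17 ± 0.34, adjusted p = 0.00332, held). The undifferentiated libraries had it at 67.1 and 54.3 FPKM in F/F_Con and 9.3 and 18.6 FPKM in PgrKO_Con, so in both states the PgrKO libraries lay below the F/F libraries. Among the sealing claudins, Cldn3 was at 166 and 171 FPKM against 149 and 109 FPKM, Cldn4 at 240 and 105 FPKM against 91 and 143 FPKM, and Cldn7 at 141 and 98.5 FPKM against 251 and 176 FPKM. None of these 3 passed (adjusted p = 0.163, 0.466 and 0.0592), and no other claudin gene tested (Cldn1, Cldn5, Cldn6, Cldn8, Cldn9, Cldn10, Cldn11, Cldn12, Cldn15 and Cldn23) passed either.

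Jam3, a junctional adhesion molecule gene, fell from 27.8 and 32 FPKM to 1.77 and 3.79 FPKM (-3.08 ± 0.50, adjusted p = 0.00864), with an adjusted p of 0.06 without F/F_Diff replicate 2. Nectin4, a cell adhesion gene of epithelia, fell from 17 and 11.2 FPKM to 1.79 and 2.1 FPKM (-2.33 ± 0.28, adjusted p = 0.00412, held). The desmosomal cadherin gene Dsg2 fell from 14 and 13 FPKM to 7.77 and 4.7 FPKM (-1.03 ± 0.24, adjusted p = 0.0262) and lost its call without either F/F_Diff library or without PgrKO_Diff replicate 2 (up to 0.109). Cdh2, the cadherin gene of neurons and mesenchyme, was at 0.136 and 0.0917 FPKM against 2.81 and 11.2 FPKM (2.61 ± 0.59, adjusted p = 0.0238), with the fibroblast markers, and lost its call without either F/F_Diff library or without PgrKO_Diff replicate 2 (up to 0.111). Of 7 keratins of simple epithelia 1 rose, Krt23, and 1 fell, Krt80. Krt23 was at 0.961 and 3.9 FPKM against 26.6 and 13.9 FPKM (2.71 ± 0.58, adjusted p = 0.0197), a call lost without F/F_Diff replicate 1 (0.0835) or PgrKO_Diff replicate 1 (0.0752). Krt80 was at 13.6 and 12.5 FPKM against 3.61 and 7.2 FPKM (-1.19 ± 0.32, adjusted p = 0.0408) and lost its call in 7 of the 8 fits (up to 0.149). The abundant members did not pass. Krt8 was at 718 and 594 FPKM against 456 and 489 FPKM, Krt18 at 766 and 523 FPKM against 468 and 390 FPKM, and Krt19 at 380 and 301 FPKM against 190 and 211 FPKM, with adjusted p of 0.266, 0.228 and 0.0876. The groups did not overlap in these 3 keratins, and they overlapped in Krt7 (135 and 80.2 against 83.1 and 96 FPKM, adjusted p = 0.576). Among the other keratins Krt87, a hair keratin gene, fell from 26.4 and 20.4 FPKM to 4.6 and 6.07 FPKM (-1.94 ± 0.31, adjusted p = 0.00844, held).

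Of 27 genes of hemidesmosomes, integrins and laminins, 8 rose, or 29.6% against 11.7% of all genes, none fell and 19 did not pass. Itgb8, an integrin chain that activates latent TGF beta, rose from 2.05 and 2.41 FPKM to 8.61 and 7.18 FPKM (1.46 ± 0.17, adjusted p = 0.00392, held). Lamb2, a laminin chain gene, rose from 18.9 and 22.8 FPKM to 39.7 and 38.9 FPKM (0.89 ± 0.15, adjusted p = 0.0105, held). Col4a1, a collagen chain of every basement membrane, rose from 13.7 and 4.36 FPKM to 55.7 and 70 FPKM (2.84 ± 0.45, adjusted p = 0.00805, held). In Itgb8 and Lamb2 the 2 libraries of each group were close to each other, whereas the F/F_Diff libraries of Col4a1 stood farther apart. The count of 8 fell to 4 without F/F_Diff replicate 2 and to 3 without PgrKO_Diff replicate 2, where 1 member was lower.

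Genes around CDC42 itself came next. Of 36 genes of CDC42 effectors 10 rose and 2 fell (median 0.39), of 20 genes of the GTPase family that CDC42 belongs to 5 rose and none fell (median 0.48), and of 37 actin and actomyosin genes 13 rose and 1 fell (median 0.50). The shares higher were 27.8%, 25% and 35.1%, and those lower 5.56%, 0% and 2.7%. Over all genes they were 11.7% and 15.4%, with a median log2 difference of 0.07. Cdc42ep1, a BORG protein gene that binds active CDC42, rose 2.76-fold, from 12.7 and 9.73 FPKM to 28.4 and 33.6 FPKM (1.39 ± 0.18, adjusted p = 0.00487, held). Diaph3, a formin gene, rose from 0.872 and 1.04 FPKM to 2.92 and 2.87 FPKM (0.99 ± 0.14, adjusted p = 0.00544, held). Rhoc, the gene of a GTPase that drives actomyosin contraction, rose from 59.2 and 47.3 FPKM to 100 and 92.7 FPKM (0.85 ± 0.15, adjusted p = 0.01, held). In all 3 genes the replicates were closer to each other than to either library of the other group.

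Among the actin genes, Cnn3, which encodes an actin-binding calponin, rose from 23.2 and 14.8 FPKM to 86 and 65.1 FPKM (1.96 ± 0.26, adjusted p = 0.00482, held) and Cfl2, an actin-severing cofilin gene, from 16.6 and 15.2 FPKM to 30.1 and 27.5 FPKM (0.82 ± 0.13, adjusted p = 0.00738, held). The smooth muscle markers Acta2 and Des, both low, rose as well. Acta2 was at 0.343 and 0.477 FPKM against 2.83 and 4.59 FPKM (1.72 ± 0.45, adjusted p = 0.0381) and lost its call in 6 of the 8 fits (up to 0.147), and Des was at 0.164 and 0.0328 FPKM against 3.53 and 8.73 FPKM (2.60 ± 0.38, adjusted p = 0.00623, held). Without F/F_Diff replicate 2 the rises fell to 2 among the CDC42 effectors, 1 among the GTPases and 2 among the actin genes, and without F/F_Diff replicate 1 to 3, 3 and 7. Without PgrKO_Diff replicate 2 they were 4, 3 and 8, and without PgrKO_Diff replicate 1 they were 11, 5 and 8. The GTPase count was 2 without any 1 of the undifferentiated libraries and 10 after median scaling, and the actin count 8 without either F/F_Con library.

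Of 36 genes of CDC42 exchange factors, GTPase activating proteins and dissociation inhibitors, 5 rose and 4 fell. These were 13.9% and 11.1%, not far from the 11.7% and 15.4% of all genes. The rises numbered 1 without F/F_Diff replicate 2 and 9 without PgrKO_Diff replicate 1. Arhgdig, a GDP dissociation inhibitor gene, fell from 52.2 and 49.6 FPKM to 6.01 and 4.69 FPKM (-3.04 ± 0.38, adjusted p = 0.00426), Plekhg6, an exchange factor gene, from 13.3 and 14 FPKM to 2.76 and 3.23 FPKM (-1.88 ± 0.18, adjusted p = 0.00288), and Dock9, an exchange factor gene for CDC42, from 11.2 and 10.6 FPKM to 6.02 and 5.79 FPKM (-0.78 ± 0.11, adjusted p = 0.00597). All 3 held. Dock9 was at 6.23 and 6.09 FPKM in F/F_Con and 5.71 and 5.85 FPKM in PgrKO_Con, a range that held both PgrKO_Diff libraries, whereas Plekhg6 was at 4.01 and 5.82 FPKM in F/F_Con, above both PgrKO_Diff libraries, and at 3.09 and 3.05 FPKM in PgrKO_Con. Apical polarity genes had 3 rises and 6 falls among 24, or 12.5% and 25% against the same shares of all genes. The atypical protein kinase C gene Prkcz fell from 12.7 and 12.9 FPKM to 6.47 and 5.44 FPKM (-0.99 ± 0.16, adjusted p = 0.00885), and Slc9a3r1, which encodes the microvillus scaffold NHERF1, from 189 and 189 FPKM to 114 and 101 FPKM (-0.81 ± 0.15, adjusted p = 0.013). Without F/F_Diff replicate 2 both lost their calls (0.0568 for Prkcz and 0.0645 for Slc9a3r1), and no fall of the polarity list was left, and without F/F_Diff replicate 1 Slc9a3r1 was at 0.0525 and 1 fall was left. Dlg5, a scaffold gene, rose from 8.5 and 8.12 FPKM to 14.5 and 14.6 FPKM (0.74 ± 0.12, adjusted p = 0.00931), also without its call when F/F_Diff replicate 2 was left out (0.0553).

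The study follows CDC42 to PI3K and AKT, a kinase pathway that is read mainly at the protein level. On the RNA level 10 of 42 genes of this pathway rose, none fell and 32 did not pass. The share higher was 23.8%, against 11.7% higher and 15.4% lower of all genes. Akt1 rose from 47.3 and 38.2 FPKM to 74.9 and 78.1 FPKM (0.83 ± 0.14, adjusted p = 0.00939, held). Akt2 was at 16.8 and 19.8 FPKM against 14.2 and 16.7 FPKM and did not pass (adjusted p = 0.264). Among the catalytic subunits of PI3K, Pik3ca did not pass (7.79 and 6.89 against 7.89 and 11.1 FPKM, adjusted p = 0.291), and Pik3cb passed with a log2 difference of 0.47 ± 0.12 (6.08 and 5.37 against 8.03 and 8.52 FPKM, adjusted p = 0.0378), a call lost without any one of the 8 libraries (up to 0.16). Pik3r1, the regulatory subunit p85 alpha gene, rose 2.15-fold, from 6.78 and 7.82 FPKM to 16.7 and 14.6 FPKM (1.01 ± 0.14, adjusted p = 0.00565, held).

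With Pik3r1, Inpp5d and Tsc2 had the smallest p of the list. Inpp5d, the phosphatase SHIP1 gene known from blood cells, rose from 1.24 and 1.35 FPKM to 6.14 and 4.76 FPKM (1.48 ± 0.21, adjusted p = 0.00594, held), and Tsc2, the gene of the mTORC1 inhibitor tuberin, from 7.2 and 7.49 FPKM to 12.3 and 13.7 FPKM (0.75 ± 0.11, adjusted p = 0.00669, held). Inpp5d was lower in PgrKO_Diff replicate 2 than in replicate 1, while the leukocyte marker sum was higher there. In the single AdKO_Diff library Inpp5d was at 0.722 FPKM, below both F/F_Diff libraries. The part of leukocytes in its rise was not tested. The count of 10 was 4 without either F/F_Diff library and 6 without PgrKO_Diff replicate 2 or either F/F_Con library.

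Of 29 genes of ERK feedback and the early growth response 9 rose, or 31%, none fell and 20 did not pass. Fosl2, an AP-1 subunit gene, rose from 12.3 and 13 FPKM to 24.1 and 28 FPKM (0.98 ± 0.12, adjusted p = 0.00416, held). Egr3 rose from 0.528 and 0.196 FPKM to 2.28 and 3.6 FPKM (1.52 ± 0.23, adjusted p = 0.00672, held), and Etv1, a transcription factor gene downstream of ERK, from 0.442 and 0.58 FPKM to 2.05 and 3.34 FPKM (1.27 ± 0.20, adjusted p = 0.00836, held). Jun, the main AP-1 subunit, chosen after its values were seen, was at 10.8 and 5.88 FPKM against 79 and 30.1 FPKM (2.47 ± 0.53, adjusted p = 0.0198), with an adjusted p of 0.112 without F/F_Diff replicate 2 and 0.0526 without PgrKO_Diff replicate 1. Jun and Fosl2 were higher in the group in which Mmp13 was lower, and a part of AP-1 in that fall was not tested. The list count was 6 without F/F_Diff replicate 1, 3 without replicate 2 and 4 without either PgrKO_Diff library.

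**Figure D4:**
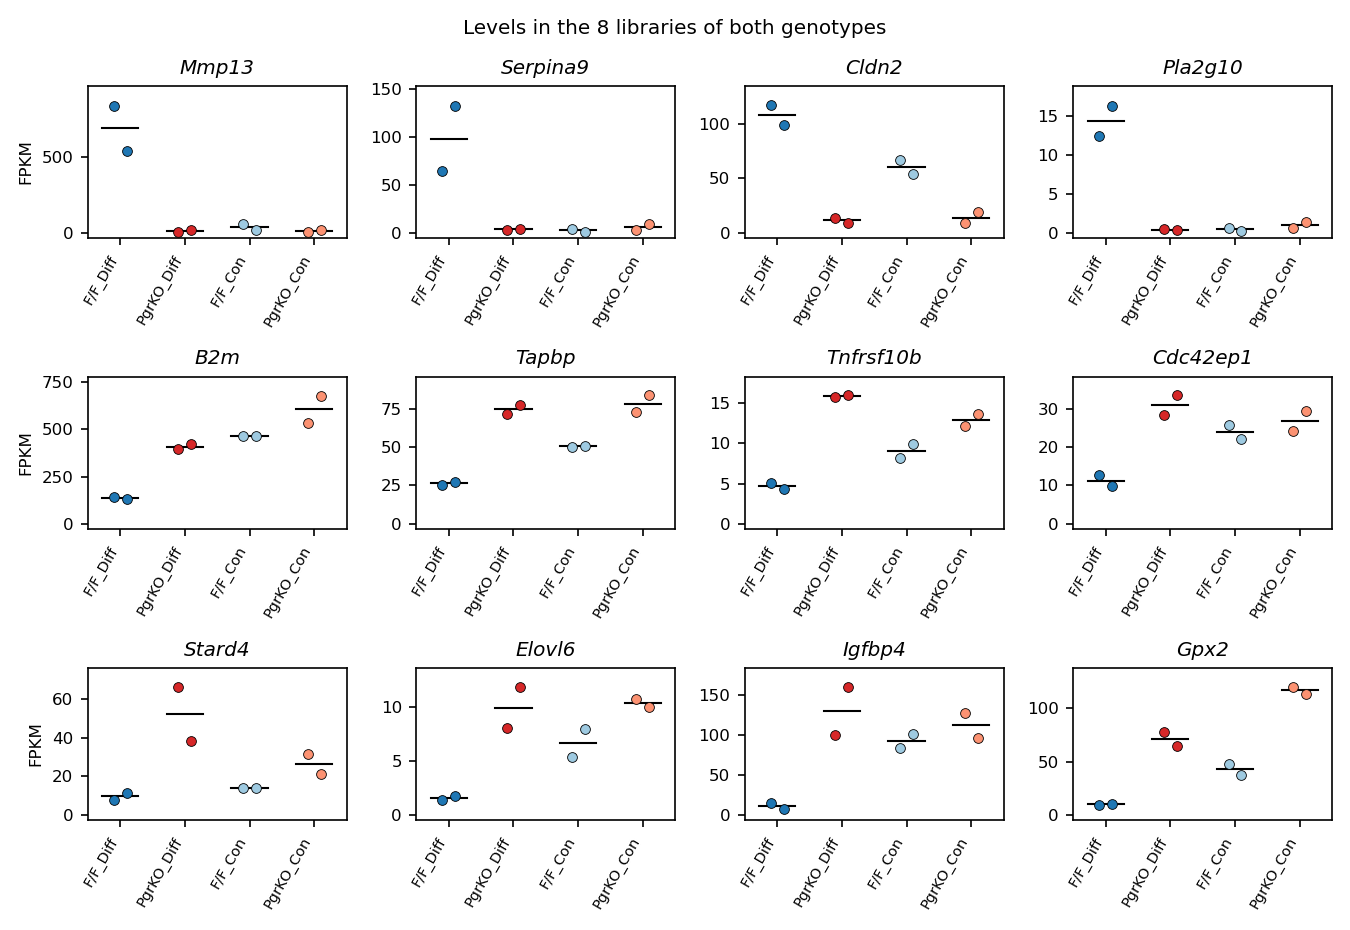
FPKM of 12 genes described in the text in the 8 F/F and PgrKO libraries. Each point is 1 library and each bar the mean of 2. The F/F_Diff libraries stand apart from the other 6 for Mmp13, Serpina9, Pla2g10, B2m, Tapbp, Cdc42ep1, Elovl6, Igfbp4 and Gpx2, while Cldn2 is low in all 4 PgrKO libraries.

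In the lists of inflammatory signaling and class I antigen presentation the members that passed were higher, with 1 exception, and most members did not pass. Of 36 genes of the TNF and NF-kB pathway 15 rose and none fell, of 24 genes of MHC class I presentation 8 rose and none fell, and of 50 interferon-stimulated genes 21 rose and 1 fell. The shares higher were 41.7%, 33.3% and 42%, against 11.7% of all genes. Tnfrsf10b, the mouse death receptor for TRAIL, rose 3.34-fold, from 5.12 and 4.35 FPKM to 15.7 and 16 FPKM (1.56 ± 0.14, adjusted p = 0.00288, held). Ltbr, the lymphotoxin beta receptor gene, rose from 32 and 27.8 FPKM to 49.6 and 50.9 FPKM (0.73 ± 0.12, adjusted p = 0.00901), with an adjusted p of 0.05 without F/F_Diff replicate 2. Nfkbia, the NF-kB inhibitor gene that NF-kB itself switches on, chosen after its values were seen, was at 97.8 and 79.5 FPKM against 145 and 138 FPKM (0.68 ± 0.19, adjusted p = 0.0479), a call lost without any one of the 4 differentiated libraries (0.0756 to 0.202). The NF-kB count was 2 without F/F_Diff replicate 2 and 7 without PgrKO_Diff replicate 2.

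The class I presentation genes had 6 to 9 rises when any 1 of the 8 libraries was left out. B2m, the light chain of every class I molecule (mm10 chromosome 2, 122147686 to 122153083), was at 140 and 129 FPKM in F/F_Diff and at 397 and 420 FPKM in PgrKO_Diff (1.60 ± 0.20, adjusted p = 0.00458, held). The heavy chain genes H2-D1 (104 and 82.4 against 304 and 243 FPKM, 1.54 ± 0.21, adjusted p = 0.00522) and H2-K1 (102 and 76.5 against 219 and 198 FPKM, 1.23 ± 0.20, adjusted p = 0.00843) rose with it and held. Tapbp, the tapasin gene that loads peptides onto class I, rose from 25.1 and 27.4 FPKM to 71.5 and 77.6 FPKM (1.47 ± 0.13, adjusted p = 0.00288, held), and Psmb10, an immunoproteasome subunit gene, from 3.33 and 2.93 FPKM to 9.94 and 8.21 FPKM (1.28 ± 0.17, adjusted p = 0.00479, held).

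The undifferentiated F/F libraries set these levels in view. B2m was at 463 and 463 FPKM in F/F_Con and 532 and 679 FPKM in PgrKO_Con, so the F/F_Diff libraries were the lowest of the 8 and the PgrKO_Diff libraries lay nearer to the undifferentiated ones. H2-K1 followed the same order, at 206 and 241 FPKM in F/F_Con and 225 and 243 FPKM in PgrKO_Con. The nonclassical gene H2-Q4 rose from 6.22 and 6.1 FPKM to 14.2 and 14.8 FPKM (1.11 ± 0.17, adjusted p = 0.00673, held), and H2-T22 from 4.61 and 3.86 FPKM to 9.1 and 9.62 FPKM (0.99 ± 0.15, adjusted p = 0.00734, and 0.0502 without F/F_Diff replicate 2), whereas H2-Q2, H2-Q5, H2-Q6, H2-Q7, H2-T10, H2-T23, H2-T24 and H2-M3 did not pass. Class I genes are near-identical copies, so reads may have been split among them. Of 5 class II genes tested only Cd74, the invariant chain, passed (3.95 and 2.42 against 13.7 and 12.2 FPKM, 1.76 ± 0.50, adjusted p = 0.048), and it lost its call without any one of the 4 differentiated libraries (up to 0.206).

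Of the interferon-stimulated genes, Gbp3, a guanylate-binding protein gene (mm10 chromosome 3, 142560026 to 142573209), rose 4.34-fold, from 1.24 and 1.59 FPKM to 6.12 and 6.14 FPKM (1.57 ± 0.16, adjusted p = 0.00322, held). Gbp6 rose from 0.287 and 0.176 FPKM to 4.24 and 2.94 FPKM (1.88 ± 0.20, adjusted p = 0.00327, held), and Ifi27l2a from 0.295 and 0.133 FPKM to 7.87 and 11.2 FPKM (3.10 ± 0.25, adjusted p = 0.00288, held). The gene that fell, Usp18, which encodes the protease that removes ISG15 from proteins and was named after its values were seen, was at 12.2 and 7.95 FPKM against 1.96 and 1.22 FPKM (-2.09 ± 0.46, adjusted p = 0.0213) and lost its call without any one of the 4 differentiated libraries (up to 0.105). The count of 21 was 8 without F/F_Diff replicate 1, 5 without replicate 2 and 11 without PgrKO_Diff replicate 2. Over the whole list the median log2 difference was 0.55 with 35 of 50 genes above 0, and before differentiation it was 0.87 with 46 above 0.

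Promoters of 3 genes described here are shown because they hold the response element core or the NF-kB core. The response element core was found in 24 of 36 interferon-stimulated genes with a promoter and in 5 of 18 class I presentation genes, against 3.72% of all genes, and the NF-kB core in 3 of 29 NF-kB pathway genes, against 0.524%. Of the 24 interferon-stimulated genes with the letters 10 rose (median log2 difference 0.57), and of the 12 without them 3 rose (median 0.02). Of the class I genes 2 of 5 with the letters and 6 of 13 without them rose, and of all genes 63 of 405 with them and 1352 of 10472 without them. The Gbp3 promoter (chr3:142559794-142560093, plus strand) holds the response element core 45 and 39 bases before the start, overlapping and on the minus strand. The B2m promoter (chr2:122147437-122147736, plus strand) holds the response element core 139 bases and the NF-kB core 126 bases before the start, and that of Nfkbia (chr12:55492598-55492897, minus strand) the NF-kB core 29 bases before it.
Gbp3: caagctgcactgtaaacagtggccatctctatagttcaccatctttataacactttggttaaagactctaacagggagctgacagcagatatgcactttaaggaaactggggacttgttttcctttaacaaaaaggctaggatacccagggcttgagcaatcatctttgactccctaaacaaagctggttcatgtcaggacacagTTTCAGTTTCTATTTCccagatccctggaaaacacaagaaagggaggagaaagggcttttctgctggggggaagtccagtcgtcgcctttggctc
B2m: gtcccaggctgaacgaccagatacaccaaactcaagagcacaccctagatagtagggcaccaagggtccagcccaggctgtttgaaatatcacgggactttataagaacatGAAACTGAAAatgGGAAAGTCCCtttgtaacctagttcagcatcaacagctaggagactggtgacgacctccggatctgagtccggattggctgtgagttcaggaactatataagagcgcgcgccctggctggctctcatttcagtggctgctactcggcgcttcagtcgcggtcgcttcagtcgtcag
Nfkbia: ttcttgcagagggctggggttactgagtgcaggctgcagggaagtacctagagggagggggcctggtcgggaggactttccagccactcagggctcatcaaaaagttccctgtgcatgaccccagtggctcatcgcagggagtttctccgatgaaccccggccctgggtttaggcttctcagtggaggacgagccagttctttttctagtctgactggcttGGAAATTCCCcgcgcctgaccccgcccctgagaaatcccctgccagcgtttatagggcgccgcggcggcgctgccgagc

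A match of letters is a description and not a site shown to be bound. Of 28 antimicrobial and pattern recognition genes 5 rose and 1 fell, or 17.9% and 3.57%. The rises numbered 2 without F/F_Diff replicate 2, 3 without PgrKO_Diff replicate 2 or either F/F_Con library and 9 after median scaling. Tlr2, the receptor of bacterial lipoproteins, rose 11.6-fold, from 1.52 and 0.593 FPKM to 8.48 and 16.1 FPKM (2.67 ± 0.37, adjusted p = 0.00545, held), and Tlr4, the receptor of lipopolysaccharide, from 9.61 and 10.9 FPKM to 19.1 and 21.9 FPKM (0.93 ± 0.14, adjusted p = 0.00658, held). The gene that fell, Il33, an alarmin stored in the nuclei of epithelial cells, was 8.24-fold lower, at 60.8 and 25.6 FPKM against 5.4 and 5.09 FPKM (-2.70 ± 0.37, adjusted p = 0.00544, held). The leukocyte marker sums given above moved with the rises, and their part was not tested.

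Of 21 genes of cholesterol transport and sterol control 11 rose and none fell, and of 44 genes of fatty acid and triglyceride metabolism 11 rose, 2 fell and 31 did not pass, so 52.4% and 25% were higher against 11.7% of all genes. Of 23 genes of retinoid synthesis and response 2 rose, or 8.7%, and none fell. Stard4, a cholesterol carrier gene, rose from 7.75 and 11.5 FPKM to 66.2 and 38.1 FPKM (2.29 ± 0.33, adjusted p = 0.00599, held). Elovl6, which lengthens palmitate, rose from 1.33 and 1.7 FPKM to 8.05 and 11.9 FPKM (2.11 ± 0.24, adjusted p = 0.00375, held), and Acly, which makes cytosolic acetyl-CoA, from 35.7 and 36.3 FPKM to 87.4 and 99.7 FPKM (1.35 ± 0.13, adjusted p = 0.00288, held).

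Agpat2, an enzyme of triglyceride synthesis, rose from 11.2 and 12.6 FPKM to 29.9 and 27.2 FPKM (1.20 ± 0.12, adjusted p = 0.00326, held). PgrKO_Diff replicate 2 was the higher library in Elovl6 and Acly and the lower in Stard4 and Agpat2. The oxysterol gene Cyp7b1 and the lipoprotein gene Apoe, both of the sterol list, rose with the fibroblast and macrophage markers. The sterol count was 6 without F/F_Diff replicate 1, 5 without replicate 2 and 6 without PgrKO_Diff replicate 2, and the fatty acid count was 6 without F/F_Diff replicate 2.

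Estradiol was in the medium of both groups. Of 23 genes of steroid receptors and the estrogen response 4 rose and 1 fell, and of 17 genes of the AKR1C family and steroid metabolism 5 rose and none fell. The shares higher were 17.4% and 29.4%, against 11.7% of all genes. The shares lower were 4.35% and 0%, against 15.4%. Without F/F_Diff replicate 2 the rises numbered 2 in each list, and in the second list they numbered 2 without F/F_Diff replicate 1, 3 without PgrKO_Diff replicate 1 and 1 without PgrKO_Diff replicate 2. Igfbp4, which binds insulin-like growth factors (mm10 chromosome 11, 99041244 to 99054392), rose 12.1-fold, from 14.8 and 6.74 FPKM to 100 and 160 FPKM (3.53 ± 0.39, adjusted p = 0.00349, held). Ihh, a hedgehog ligand gene that progesterone induces in the uterus, rose from 0.83 and 1.52 FPKM to 8.51 and 8.06 FPKM (2.11 ± 0.24, adjusted p = 0.00361, held). Hsd17b7, an enzyme of cholesterol synthesis that can also make estradiol, rose from 3.31 and 3.38 FPKM to 15.3 and 22 FPKM (2.15 ± 0.22, adjusted p = 0.00326, held).

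The estrogen receptor gene Esr1 was at 9.99 and 13.3 FPKM against 25.7 and 19 FPKM (0.88 ± 0.22, adjusted p = 0.0337), and it lost its call in 5 of the 8 fits (up to 0.141). Pgr, whose locus carries the Cre in 1 group, was at 7.04 and 15 FPKM against 54.2 and 20.6 FPKM and did not pass (adjusted p = 0.104). Akr1c18, which inactivates progesterone, was at 0.68 and 5.11 FPKM against 50.6 and 55.8 FPKM (4.08 ± 0.90, adjusted p = 0.0221), with adjusted p of 0.1 without F/F_Diff replicate 1, 0.0676 without PgrKO_Diff replicate 1 and 0.0854 without PgrKO_Diff replicate 2. The near-identical Akr1c12, Akr1c13, Akr1c14, Akr1c19 and Akr1c21 did not pass, and reads may be split among the copies.

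Of 28 prostaglandin and eicosanoid genes 3 rose and 6 fell, or 10.7% and 21.4%. Pla2g10, a secreted phospholipase that frees arachidonic acid, fell 35.2-fold, from 12.4 and 16.3 FPKM to 0.417 and 0.397 FPKM (-3.43 ± 0.28, adjusted p = 0.00288, held). Ptges3, a prostaglandin E synthase and co-chaperone of steroid receptors, fell from 178 and 210 FPKM to 73.9 and 67.7 FPKM (-1.44 ± 0.15, adjusted p = 0.00327, held), and Ephx2, the soluble epoxide hydrolase gene, from 5.09 and 7.37 FPKM to 1.14 and 0.687 FPKM (-1.91 ± 0.28, adjusted p = 0.00624, held). Both groups were tight in Ptges3, and its PgrKO_Diff levels lay below the 88.3 to 119 FPKM of the 4 undifferentiated libraries. The 6 falls numbered 3 without F/F_Diff replicate 1, F/F_Diff replicate 2, PgrKO_Diff replicate 2 or either PgrKO_Con library.

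In signaling pathways of patterning, few members passed. Of 34 WNT genes 3 rose and 3 fell, of 18 Notch genes 2 rose and 2 fell, of 31 genes of TGF beta and BMP signaling 4 rose and 2 fell, and of 22 YAP and TEAD target genes 2 rose and 1 fell. The shares higher were 8.82%, 11.1%, 12.9% and 9.09%, not far from the 11.7% of all genes. The shares lower were 8.82%, 11.1%, 6.45% and 4.55%, against 15.4% of all genes. These small counts moved with single libraries, and without PgrKO_Diff replicate 1, for example, 8 WNT genes were higher. The noncanonical ligand gene Wnt11 fell from 14.2 and 18.7 FPKM to 0.911 and 1.55 FPKM (-2.97 ± 0.38, adjusted p = 0.00449, held). Jag2, a Notch ligand gene, fell from 7.55 and 7.51 FPKM to 1.26 and 1.26 FPKM (-1.92 ± 0.19, adjusted p = 0.00326, held), and Dtx1, a Notch regulator gene, from 11.6 and 8.93 FPKM to 0.87 and 1.52 FPKM (-2.37 ± 0.34, adjusted p = 0.00618, held). Hes1, the best-known Notch target, was at 22.9 and 26.4 FPKM against 33.3 and 20.8 FPKM, overlapping, in medium with DBZ (adjusted p = 0.815).

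Of 27 transcription factor genes of the Müllerian duct and oviduct, 3 rose and 3 fell, and no member passed without either F/F_Diff library. The shares were 11.1% each way, against 11.7% and 15.4% of all genes. Pax2 rose from 1.62 and 2.18 FPKM to 9.97 and 5.62 FPKM (1.56 ± 0.30, adjusted p = 0.0141) and lost its call without either F/F_Diff library (up to 0.0739). Foxa2, a factor of gland epithelium, fell from 32.2 and 37 FPKM to 18.9 and 10.9 FPKM (-1.20 ± 0.30, adjusted p = 0.0316) and lost its call in 5 of the 8 fits (up to 0.146). Of 9 EGF ligand and receptor genes only Nrg4, a neuregulin gene, passed, falling from 4.47 and 4.14 FPKM to 0.713 and 0.997 FPKM (-1.52 ± 0.16, adjusted p = 0.00336, held). Areg, the amphiregulin gene, was at 59.4 and 4.62 FPKM against 0.827 and 1.05 FPKM and did not pass (adjusted p = 0.0661).

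Of 55 NRF2, glutathione and xenobiotic genes 7 rose and 11 fell, or 12.7% and 20%, not far from the 11.7% and 15.4% of all genes, and of 30 S100, annexin and galectin genes 3 rose and 7 fell, or 10% and 23.3%. Cyp2s1, an epithelial cytochrome P450 gene, fell 14.8-fold, from 41.3 and 40.1 FPKM to 1.69 and 3.8 FPKM (-3.54 ± 0.44, adjusted p = 0.00423, held). Gpx2, the glutathione peroxidase of gut epithelium (mm10 chromosome 12, 76792333 to 76795554), rose 7.32-fold, from 9.3 and 10.3 FPKM to 78.3 and 64.8 FPKM (2.75 ± 0.17, adjusted p = 0.00283, held). Lgals1, a galectin gene of stroma, rose 8.44-fold, from 14 and 8.74 FPKM to 79.2 and 113 FPKM (2.98 ± 0.34, adjusted p = 0.00361, held), with the fibroblast markers. The falls of the S100, annexin and galectin list were 2 without F/F_Diff replicate 1 or PgrKO_Diff replicate 1 and 4 without either of the other 2 differentiated libraries, and those of the xenobiotic list were 4 to 6 without F/F_Diff replicate 1, F/F_Diff replicate 2 or PgrKO_Diff replicate 2.

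Transporters and organelles gave further single genes. Slc16a3, the lactate exporter MCT4 gene, fell from 19.6 and 20.7 FPKM to 0.945 and 1.93 FPKM (-3.15 ± 0.29, adjusted p = 0.00288, held), and Slc23a1, a vitamin C transporter gene, from 32.2 and 58.5 FPKM to 8.38 and 7.51 FPKM (-2.32 ± 0.30, adjusted p = 0.00477, held). Bnip3, a gene of mitochondrial autophagy, fell from 25.4 and 43.1 FPKM to 4.8 and 5.43 FPKM (-2.48 ± 0.37, adjusted p = 0.00658, held). Of 48 lysosome and autophagy genes 11 rose and 4 fell, of 37 genes of the unfolded protein response and secretory pathway 9 rose and 3 fell, and of 33 ATF4 and amino acid response genes 1 rose and 3 fell. The shares higher were 22.9%, 24.3% and 3.03%, against 11.7% of all genes. The shares lower were 8.33%, 8.11% and 9.09%, against 15.4%. The rises of the unfolded protein response numbered 4 without F/F_Diff replicate 1 and 5 without replicate 2. The lysosomal rises were 4 without F/F_Diff replicate 1 or PgrKO_Diff replicate 2 and 5 without F/F_Diff replicate 2. After median scaling they were 20. The 3 falls of the ATF4 list numbered 0 without F/F_Diff replicate 1 or either PgrKO_Diff library and 1 without F/F_Diff replicate 2.

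Some gene groups had few or no calls, where 11.7% of all genes passed as higher and 15.4% as lower. None of 71 genes of cytosolic ribosomal proteins passed by limma, with a median log2 difference of 0.05, none passed in the fit to recovered reads (limma voom), and 0 had an unadjusted p under 0.05. Of 66 respiratory chain genes none rose and 2 fell, or 0% and 3.03% (median -0.10). One of them, Cox6b2, a subunit gene of testis, fell from 7.71 and 16.2 FPKM to 1.19 and 1.0 FPKM (-2.55 ± 0.32, adjusted p = 0.00429, held), and the other, Ndufs7, was at 37.9 and 31.8 FPKM against 24.3 and 17.9 FPKM (adjusted p = 0.0428) and lost its call in 7 of the 8 fits (up to 0.169). Without PgrKO_Diff replicate 1, 14 respiratory chain genes were lower. Of the 14 general epithelial markers none rose and 1 fell, or 0% and 7.14%. It was Ovol2, a repressor of mesenchymal genes, which went from 4.05 and 4.81 FPKM to 2.59 and 1.94 FPKM (-0.74 ± 0.19, adjusted p = 0.0375) and lost its call in 6 of the 8 fits (up to 0.17).

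The same genotypes before differentiation, in 4 other libraries, show which differences were already there. Between PgrKO_Con and F/F_Con 42 genes were higher and 54 lower with a log2 difference past 1, or 0.266% and 0.341% of all genes. By limma both counts were 0 when any 1 of the F/F or PgrKO_Con libraries was left out, the higher genes numbered 82 and the lower 48 without PgrKO_Diff replicate 1 and 71 and 43 without replicate 2, and each count was 1 with the replicate number as a block. In all, 3461 genes had an unadjusted p under 0.05 with all libraries. Of the 777 genes outside the cilium that were higher in PgrKO_Diff, 709 (91.25%) had a difference of the same sign in the undifferentiated libraries, against 49.92% of all genes outside the cilium above 0 there, and their median was 0.77 before and 1.47 after differentiation. In 79.7% of them both PgrKO_Con libraries lay above both F/F_Con libraries, against 28.2% of all genes. Of the 1406 genes that were lower, 996 (70.8%) had the same sign, against 49.56% of all genes outside the cilium below 0, with a median of -0.22 before and -1.64 after differentiation. In 43.2% of them both PgrKO_Con libraries lay below both F/F_Con libraries, against 28.7% of all genes. PgrKO_Con and PgrKO_Diff libraries of the same number deviated together from their group means (r = 0.53 across genes), so these libraries are not fully separate evidence.

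Among the 777 higher genes the median difference of F/F_Diff from F/F_Con was -0.45 and that of PgrKO_Diff from PgrKO_Con 0.23. Among the 1406 lower genes these were 1.23 and -0.23, values that share the F/F_Diff and PgrKO_Diff libraries with the choice of the genes and are raised or lowered by that choice, so they are given only as a description.

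**Figure D5:**
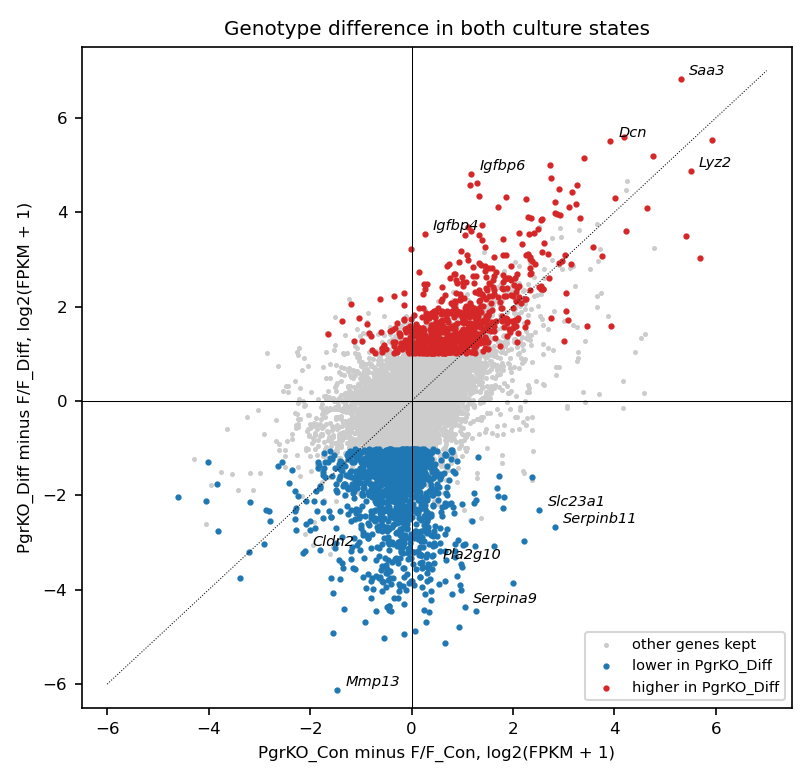
Log2 difference between PgrKO and F/F libraries before (horizontal axis) and after (vertical axis) differentiation for each gene kept outside the cilium list, with genes past an adjusted p of 0.05 and a log2 difference past 1 after differentiation in color. The 777 higher genes lie mostly right of 0, with a median of 0.77, and the 1406 lower genes near 0, with a median of -0.22, and the dotted line marks equal differences.

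In the AdKO_Diff library, which is set beside the same F/F_Diff controls and has no replicate, Mmp13 was at 101 FPKM, Serpina9 at 14.8 FPKM, Cldn2 at 42.8 FPKM and Pla2g10 at 0.842 FPKM, all below both F/F_Diff libraries. Among the genes that rose in PgrKO_Diff, B2m was at 218 FPKM, Tapbp at 41.1 FPKM and Gpx2 at 49.4 FPKM there, all above both F/F_Diff libraries, and Igfbp4 at 2.71 FPKM was below both.

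A test of the difference between the states (the interaction term of the same limma fit) passed for 697 genes, 4.41% of all genes and 534 of them outside the cilium. It passed for 428 of the 1406 lower and 42 of the 777 higher genes. Serpina9 had interaction log2 -5.42 (adjusted p = 0.0428). It was at 4.08 and 1.06 FPKM in F/F_Con and 3.19 and 9.64 FPKM in PgrKO_Con, so the genotypes overlapped before differentiation. Slc23a1 changed direction, at 3.0 and 1.85 FPKM in F/F_Con and 19.1 and 17.8 FPKM in PgrKO_Con (log2 2.52, adjusted p = 0.0442), against a fall after differentiation, with interaction log2 -4.84 (adjusted p = 0.0428). Igfbp4 was at 83.8 and 102 FPKM in F/F_Con and 128 and 96.5 FPKM in PgrKO_Con, so its difference in the differentiated state stood against a low level in F/F_Diff (interaction log2 3.27, adjusted p = 0.0445). These interaction calls were lost in 7 of the 8 fits that leave out a library: only without PgrKO_Con replicate 1 did any gene pass, 461 in number, and the smallest adjusted p in the others ran from 0.0595 to 0.136. With the replicate number as a block no gene passed (smallest adjusted p 0.0757, with 3385 genes at an unadjusted p under 0.05).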

How the data were processed

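RNA of mouse oviduct organoids was sequenced in 10 libraries. The authors deposited 1 table of FPKM values for genes. The submitters' processing notes name HISAT2, edgeR and mm10, while the study's methods name Tophat2 and RPKM, and whether counting used strand is not given in the sources used here. The values are not counts, so limma 3.58.1 in R 4.3.3 was fitted to log2(FPKM + 1) of all 10 libraries with 6 groups and a variance trend, for the 15817 genes whose mean reached 1 FPKM in any group. The single AdKO libraries added no residual freedom, which left 4 degrees. The deposited values gave whole reads within 0.01 for 99.99% of nonzero values, and these reads were used in an alternative fit (limma voom). All value columns matched a sample. Groups came from the labels.

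Deviations of same-numbered libraries correlated at r = -0.15 between F/F_Diff and PgrKO_Diff, at -0.17 to -0.04 between the other groups and at 0.53 between PgrKO_Con and PgrKO_Diff, and the labels give a number no shared origin, so numbers were not treated as pairs. The alternatives were other pseudocounts, filters, scalings, thresholds and sample sets, a replicate block and leaving out each F/F and PgrKO library in turn. Genes were named by rule: the 15 largest rises and falls outside the cilium (a mean of 5 FPKM or more in the higher group), the 3 of smallest p in each list, every passing member where 5 or fewer passed, the study's own genes and chosen families. Some genes that the rule names are not reported here. The gene lists and the genes followed were chosen with earlier results of these data known. The fit was tested on simulated data. Genes with near-identical copies (H2, Serpina3, Akr1c, Gstm, Speer4, Ifit) share reads and are uncertain, as are overlapping antisense genes.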

Additional observations from a re-analysis of the deposited data

Results flagged for a closer look

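For 22 of the genes named, the difference between PgrKO and F/F libraries after differentiation differed from that before it, by the interaction term of the limma fit, with adjusted p from 0.0428 to 0.0486. Values are the log2 difference after differentiation minus that before it. The largest negative values were those of the serpin genes Serpinb11 (-5.48) and Serpina9 (-5.42), the vitamin C transporter gene Slc23a1 (-4.84), Styxl1 (-3.90) and the phospholipase gene Pla2g10 (-3.88). Arhgdig had -3.38, Rnf112 -3.22, the keratin genes Krt87 and Krt80 -3.17 and -2.50, and Fxyd4 -2.26. Gstm6 had -1.56, Nrg4 -1.38, Plekhg6 -1.35 and Ptges3 -1.10. The positive values were 3.27 for Igfbp4, 2.45 for Serpina3g, 2.02 for Ifi27l2a, 1.33 for Lamb2, 1.31 for Gpx2, 1.30 for H2-Q4, 1.08 for Tnfrsf10b and 0.96 for Acly.

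Serpinb11, Slc23a1, Krt80 and Krt87 were higher in both PgrKO_Con than in both F/F_Con libraries and lower in both PgrKO_Diff than in both F/F_Diff libraries. For Serpinb11 the undifferentiated values were 6.54 and 2.01 FPKM in F/F_Con and 32.9 and 32.2 FPKM in PgrKO_Con. Lamb2 went the other way, at 48.2 and 60.1 FPKM in F/F_Con and 40.5 and 38.2 FPKM in PgrKO_Con. The adjusted p of all 22 lie just under 0.05, and no gene passed this test when any 1 library other than PgrKO_Con replicate 1 was left out.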

How the results depend on the processing

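With 2 libraries in a group, single libraries moved many calls, and the part of depth was not tested. Of the genes named that passed, none changed direction under an alternative that kept it. The balance of all passed genes did turn, from 1856 higher and 2433 lower to 2446 and 2187 after median scaling. The count of genes higher in PgrKO_Diff than in F/F_Diff, 781, became 469 with no filter, 489 with only the 4 differentiated libraries, 346 in an ordinary linear model, 262 with a pseudocount of 5, 1856 with no fold minimum and 253 at an adjusted p under 0.01. The count of genes lower, 1770, became 914 with a pseudocount of 5. Leaving out 1 of the 8 libraries at a time, the higher genes ranged from 270 to 1174 and the lower from 1221 to 1724.

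Between PgrKO_Con and F/F_Con, the 42 higher and 54 lower genes became 8 and 12 with no filter, 0 and 0 with only the 4 undifferentiated libraries or at an adjusted p under 0.01, 0 and 1 in an ordinary linear model, and 27 and 27 with a pseudocount of 0.1. The higher genes became 24 with a pseudocount of 5, and the lower 94 with quantile normalization and 83 without the AdKO libraries. Leaving out 1 library gave 0 to 82 higher and 0 to 48 lower, and without either PgrKO_Diff library the higher genes were the more numerous. The 697 genes whose genotype difference differed between the states became 105 with no filter, 20 in an ordinary linear model, 0 with a pseudocount of 0.1 (smallest adjusted p 0.0645), 1110 with a pseudocount of 5 and 0 at an adjusted p under 0.01, and 0 to 461 on leaving out 1 library.

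With the replicate block, 762 genes were higher and 1707 lower in PgrKO_Diff, 1 higher and 1 lower in PgrKO_Con, and 0 differed between the states, where 3385 had an unadjusted p under 0.05. The crossed pairing, chosen after seeing the data, gave 862 and 1793 genes. Of the 164 genes named that passed, the replicate block lost 15, voom 13, an ordinary linear model 44 and leaving out F/F_Diff replicate 2 lost 68, the most of any single library.

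Chosen after seeing the data, voom on recovered reads gave 1004 higher and 1950 lower genes, 15 and 19 before differentiation, and 0 for the difference between the states. Without both second PgrKO libraries there were 670 and 1237 genes, 208 higher before differentiation and 0 for the difference between the states. The causes of these changes were not tested.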
